A study of Mus musculus with 46 samples.

Results

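The 41 genes described here encode liver-secreted complement and clotting proteins, 18 of complement and 23 of coagulation and fibrinolysis. They were chosen by gene symbol, and all 41 were found among the 55416 genes of the deposited count tables. RNA was measured by bulk sequencing in 46 snap-frozen livers of male mice. In 4 experiments Plvap knockouts were set against littermate controls. The mice are labelled Plvaptm1.1Salm-Tg(Lrat-cre)1Rshw on C57BL/6JBomTac, so a floxed Plvap allele, which encodes the diaphragm protein of caveolae and fenestrae, is deleted where the Lrat promoter drives Cre, in hepatic stellate cells. The chow experiments were a 12 h fast (6 controls, 5 knockouts) and a 10 h fast followed by 2 h of refeeding (4 and 4). Over 6 weeks, other mice received a western diet with fructose in the drinking water (5 controls, 4 knockouts) or a high-fat diet with plain water (5 and 5), and both were fasted 12 h. In the last experiment whole-body Cav1 knockouts (STOCK Cav1tm1Mls/J, 4 mice) were compared with C57BL/6N wild types (4 mice) on chow after 6 h of fasting. There the stock and the genotype cannot be told apart. Ages are not given in the labels, nor is whether controls carry the Cre transgene.

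Hepatocytes make most of these proteins. Complement marks and lyses microbes through a lectin, a classical and an alternative route that meet at C3 and end in the membrane attack complex. Coagulation is a cascade of serine protease zymogens that ends when thrombin turns fibrinogen into fibrin, and inhibitors and plasmin hold it in check. Several of these genes, fibrinogen first among them, are known to follow acute phase signals and the hepatocyte transcription factors HNF4 and C/EBP.

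Total counts per library ran from 6656342 to 23311539, and the members took 2.84 to 4.86% of them. The lowest count of any member in any library was 122, so every member was measured well above the filter on low counts. Plvap in the knockouts was at 20%, 17.8%, 18.9% and 25.3% of the control mean in the fasted, refed, western and high-fat diet experiments, and Cav1 in its knockouts at 16.5% of wild type. Albumin RNA (Alb), a hepatocyte product, was at 196%, 167%, 160% and 218% of control in the same Plvap experiments and at 143% in the Cav1 experiment. In whole-liver RNA fewer cells of a type and less RNA per cell cannot be told apart. Levels below are CPM, counts set to a common library size by the TMM method over all 46 libraries, as mean ± SD. Fold changes are log2 values ± SE from edgeR's quasi-likelihood fit within each table, and a gene is called where its p-value, adjusted by Benjamini-Hochberg over all genes tested, is under 0.05. All 41 members passed the filter on low counts in every fit.

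Promoter windows from RefSeq (build GRCm38.p6) were available for 32 of the 41 members, 250 bases before and 50 after each annotated start. The stretches of 120 bases just before the start are shown for 5 genes: Hgfac and Mbl2, the pair with the smallest p in fasted knockouts, and the 3 fibrinogen chains, which lie side by side on chromosome 3. Capitals mark a match on either strand to any of 5 short motifs. They are CAAAGTCCA for HNF4, TTGCNNAA for C/EBP, TTCNNNGAA for STAT3, CTGGGA for the type II IL-6 response element and TATAAA for the box of that name. Overlapping matches of different motifs were each counted.
Hgfac, chr5:35041389-35041508, plus strand: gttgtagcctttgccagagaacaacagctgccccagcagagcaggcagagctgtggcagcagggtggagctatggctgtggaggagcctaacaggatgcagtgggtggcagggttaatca
Mbl2, chr19:30232808-30232927, plus strand: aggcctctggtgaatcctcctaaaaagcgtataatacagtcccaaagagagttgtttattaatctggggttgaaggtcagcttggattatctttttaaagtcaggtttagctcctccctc
Fga, chr3:83026033-83026152, plus strand: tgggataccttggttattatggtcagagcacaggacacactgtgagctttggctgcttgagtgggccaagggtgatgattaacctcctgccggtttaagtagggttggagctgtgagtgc
Fgb, chr3:83049864-83049983, minus strand: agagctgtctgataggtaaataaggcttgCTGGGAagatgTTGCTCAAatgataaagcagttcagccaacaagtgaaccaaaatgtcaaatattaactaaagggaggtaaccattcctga
Fgg, chr3:83007604-83007723, plus strand: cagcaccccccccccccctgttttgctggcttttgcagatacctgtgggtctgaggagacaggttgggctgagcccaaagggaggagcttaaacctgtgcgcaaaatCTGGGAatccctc
In Fgb the type II IL-6 letters stand 91 to 86 and the C/EBP letters 80 to 73 bases before the start, and in Fgg the type II IL-6 letters stand 13 to 8 before it. None of the 5 motifs was found in these 120 bases of Hgfac, Mbl2 or Fga. Over the full 250 bases before the start, each motif was counted in the 32 members and in all 27025 windows. The C/EBP motif was in 8 members (25%, all windows 9.55%) and the STAT3 motif in 7 (21.9%, all windows 7.18%). The IL-6 type II motif was in 13 (40.6%, all windows 26.8%), TATAAA in 2 (6.25%, all windows 13%) and the HNF4 letters in 0 (all windows 0.381%). A match is a run of letters in a window and was not tested as a binding site.

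Per kilobase of summed exon length, the fibrinogen chains stood at the top. That length sums all annotated exons of a gene, so the order between genes depends on the annotation and is approximate. In CPM alone, over the 46 livers, C3 (4755) stood above Fgb (4323), Fgg (3889) and Fga (3054). Per kb Fgg averaged 1858 CPM, Fgb 1135 and Fga 1015, and C3, the central complement protein, came next at 924. Kng1 (high molecular weight kininogen, 554), Plg (plasminogen, 536) and F2 (prothrombin, 434) followed. The lowest were Masp1 (a lectin pathway protease, 10.6), Cfb (the alternative pathway protease factor B, 10.7) and C2 (its classical pathway counterpart, 12.7). Those 3 were not separated, and Cfb alone ran from 5.73 ± 1.18 (SD, n = 5) in western diet controls to 20.6 ± 6.39 (SD, n = 4) in refed knockouts. After refeeding C3 stood above Fgg, at 1297 against 1110 CPM per kb in controls and 1615 against 1255 in knockouts. Each of the 4 tables holds other feeding conditions (diet, fasting time or refeeding) or another mouse stock, and table and condition cannot be told apart, so levels across tables are described without a test.

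**Figure D1:**
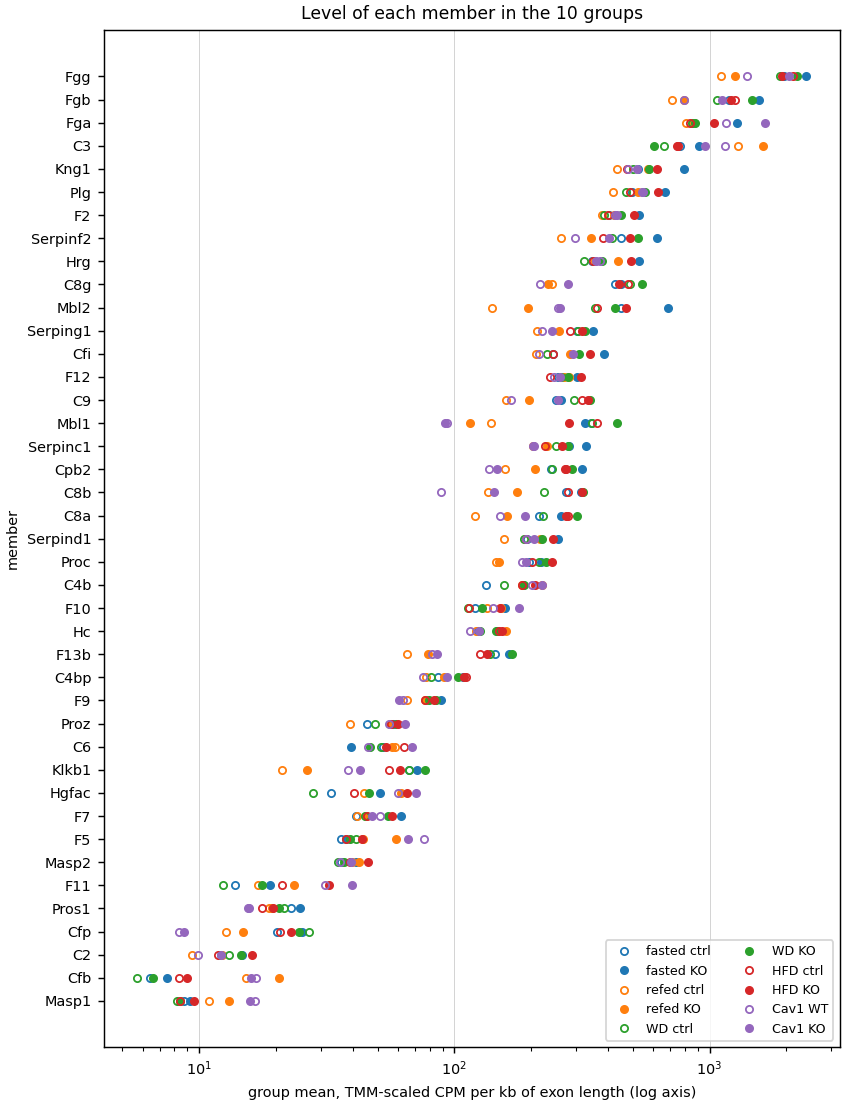
Group mean of each of the 41 members in TMM-scaled CPM per kb of exon length (log axis), 1 point per group, open for controls and filled for knockouts, with members sorted by level. Fgg, Fgb and Fga head the list, and Masp1, Cfb and C2 close it.

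Members differed widely in how far their group means ranged. Mbl2, a mannose-binding lectin that starts the lectin pathway, ran over 4.88-fold, from 153 CPM in refed controls to 746 in fasted Plvap knockouts. Its paralog Mbl1 ran over 4.71-fold, from 145 CPM in Cav1 knockouts to 682 in western diet knockouts. Masp2, the lectin pathway protease that cleaves C4 and C2, stayed within 1.31-fold, and F12 (factor XII of the contact system) within 1.31-fold. Within groups, the pooled SD of log2 CPM was smallest for Masp2 (0.0965) and F2 (0.113) and largest for C3 (0.350). Of the 41 members, 18 had their lowest group mean in refed controls, among them all 3 fibrinogen chains.

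The members also varied together from liver to liver. After each group's mean was taken out, log2 levels over the 46 livers had a median correlation of 0.36 across the 820 pairs of members, and 682 pairs were above 0. The highest of all was Fgb with Fgg (r = 0.967), the β and γ chains of fibrinogen. Fga, the α chain, followed them less closely (r = 0.657 with Fgg and 0.620 with Fgb). Next came Hc, the gene of mouse C5, with Serping1, the C1 inhibitor (r = 0.902), and Fgg with Cpb2, the carboxypeptidase that slows fibrinolysis (r = 0.889). The lowest was C8g with F5 (r = -0.564). These points share library and depth, and genes are not independent replicates, so the values are descriptions.

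**Figure D2:**
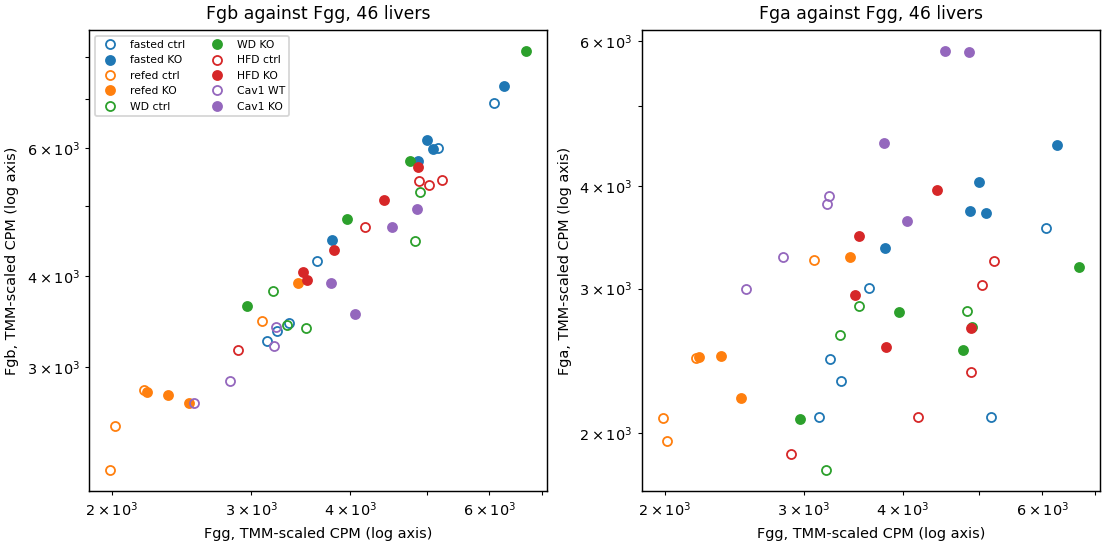
TMM-scaled CPM (log axes) of Fgb (left) and Fga (right) against Fgg in each of the 46 livers, coloured by experiment, open for controls and filled for knockouts. Fgb follows Fgg along a narrow band (r = 0.967 after group means are removed), and Fga scatters more (r = 0.657).

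In fasted livers on chow, 7 of the 41 members rose in the stellate Plvap knockout and none fell: Hgfac, Mbl2, F7, Cfi, Serpind1, Fga and Hrg. Of all 12840 genes tested, 2.25% were called in either direction and 1.13% were called higher. The changes were 1.32- to 1.58-fold. By role they comprised 1 of 4 lectin pathway genes, 1 of 4 complement regulators, 1 of 3 fibrinogen chains, 1 of 7 vitamin K dependent factors, 1 of 2 inhibitors and 1 of 4 fibrinolysis genes, and Hgfac besides. None of the 4 contact system genes F11, F12, Klkb1 and Kng1 was called. No gene of the C3 convertases or of the terminal pathway was called. In 6 members every knockout lay above every control (1.41% of all genes), and 23 had an unadjusted p under 0.05 (17.6%). The log2 fold change was above 0 for 39 members, against 49.0% of all genes, and its median was 0.28 over members and -0.01 over all genes.

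Hgfac encodes hepatocyte growth factor activator, a plasma protease related to factor XII (chr5:35198853-35205805 in GRCm39, plus strand). The 6 controls lay between 88.5 and 143 CPM with a median of 104, and the 5 knockouts were at 200, 185, 155, 152 and 179. Every knockout was above every control. The change was 0.64 ± 0.12 (log2 ± SE, adjusted p = 0.0145, edgeR).

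Mbl2 (chr19:30210342-30217087) lay between 441 and 566 CPM in controls with a median of 483, and at 790, 937, 713, 591 and 701 in knockouts. Here too the groups did not overlap, and the change was 0.60 ± 0.12 (adjusted p = 0.0154, edgeR). Mbl1 encodes the other mannose-binding lectin of the mouse. Its value was -0.08 ± 0.13, and the groups overlapped at 540 ± 111 CPM in controls and 511 ± 53.2 in knockouts.

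Cfi (chr3:129629533-129668981) encodes factor I, the protease that inactivates C3b and C4b. Controls lay between 430.9 and 647 CPM with a median of 541, and knockouts were at 941, 935, 620, 796 and 979. Knockout C, at 620, lay among the controls and the other 4 lay above them all. The change was 0.66 ± 0.14 (adjusted p = 0.0243, edgeR).

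F7 (chr8:13076034-13085809) encodes factor VII, which starts clotting with tissue factor. Its controls lay between 61.7 and 91.6 CPM (median 74.99) and the knockouts were at 115, 141, 88.5, 111 and 121. Only knockout C overlapped the controls, and the change was 0.58 ± 0.12 (adjusted p = 0.0203, edgeR). Serpind1 encodes heparin cofactor II, a thrombin inhibitor. It lay between 380.8 and 468 CPM in controls (median 411.5) and at 538, 589, 521, 536 and 614 in knockouts, with no overlap and a change of 0.40 ± 0.09 (adjusted p = 0.0290, edgeR).

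Fga controls lay between 2093 and 3552 CPM (median 2388) and the knockouts were at 3708, 4040, 3364, 3730 and 4489. Knockout C fell below the highest control. The change was 0.57 ± 0.14 (adjusted p = 0.0440, edgeR). Hrg encodes histidine-rich glycoprotein, which binds plasminogen and heparin. Its controls lay between 531 and 853 CPM (median 679), its knockouts at 1128, 1246, 753, 974 and 1169, and the change was 0.60 ± 0.15 (adjusted p = 0.0442, edgeR). Again knockout C lay among the controls and the other 4 knockouts above them. The other fibrinogen chains were at 0.38 (Fgb) and 0.28 (Fgg) and were not called.

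Hgfac and Mbl2 were called with any single library left out. The count of called members without 1 library lay between 2 and 11: it was 2 without control C, knockout B or knockout E, 3 without knockout A, 4 without control A, control B or knockout D, and 11 without control E. Summed hepatocyte markers (8 genes) were 59531 to 73751 CPM in controls and 94120 to 116842 in knockouts. Alb, 1 of them, was at 31889 ± 2767 CPM (SD) in controls and 62554 ± 8800 in knockouts. Of the 8 genes 6 were above 0 and 2 below, with a median log2 difference of 0.24. In this list 3 had an unadjusted p under 0.05 and only Alb was called. Summed Kupffer cell markers (10 genes) were 567 to 890 CPM in controls and 800 to 1132 in knockouts. Of these 7 of 10 had an unadjusted p under 0.05 (17.6% of all genes), with a median log2 difference of 0.30. Leukocyte markers (7 genes, 6 tested) summed to 19.1 to 30.5 and 28.2 to 73.9. Of the tested ones 3 of 6 had an unadjusted p under 0.05, with a median of 0.52. No marker of these lists was at 0 in every library of either group. Red cell markers (5 genes) summed to 425.4 to 604 CPM in controls and 485 to 1496 in knockouts, with 3 of 5 at an unadjusted p under 0.05 and a median log2 difference of 0.86. Cholangiocyte markers (5 genes, 4 tested) summed to 48.6 to 108 and 39.4 to 77.3, with 3 of 4 at an unadjusted p under 0.05 and a median of -0.69. No gene of the Kupffer, leukocyte, red cell or cholangiocyte lists was called. Of 9 liver endothelial markers Lyve1 was called higher (0.64 ± 0.15, adjusted p = 0.0347, edgeR) and 6 were below 0. The part of these cell types in the result was not tested. Log2 fold change and gene length were correlated across genes (Spearman -0.21), and with the length trend taken out 6 of the 7 calls remained.

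**Figure D3:**
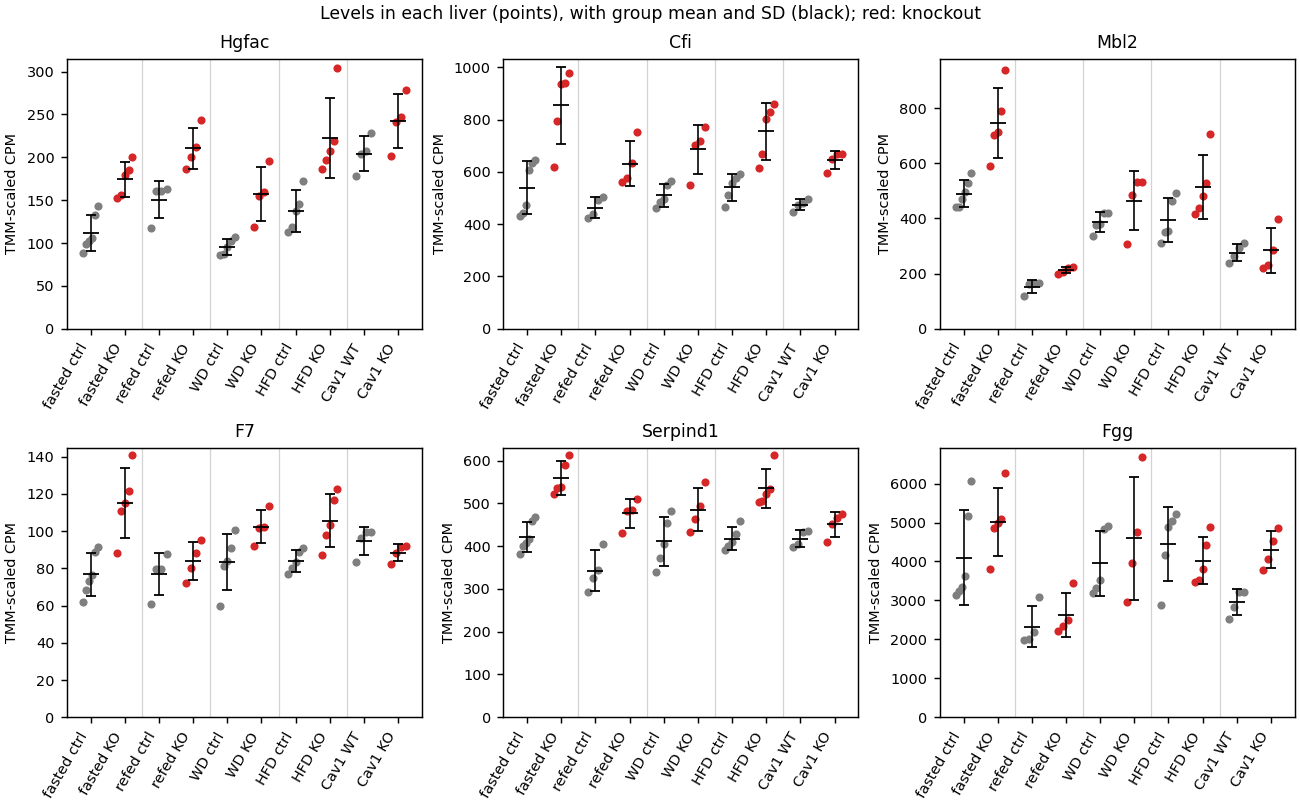
TMM-scaled CPM of 6 members in each liver (points), grey for controls and red for knockouts, with the group mean and SD in black and groups in pairs by experiment. Hgfac points of the Plvap knockouts lie above those of their controls in all 4 Plvap experiments.

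After refeeding no member was called, and 3 of all 13228 genes tested were (0.0227%). The edgeR values given here come from a fit that did not pair same-lettered samples. DESeq2 also called 0 members. Across all genes log2 fold change rose with gene length here (Spearman 0.27), the opposite sign to the fasted livers, and with the trend removed 39 members were above 0 with a median of 0.31. Log2 fold changes were above 0 for 38 members (51.1% of all genes), with a median of 0.28 against 0.01 over all genes, and 12 members had an unadjusted p under 0.05, as did 7.74% of all genes. With 1 library left out, 36 to 39 members were above 0 and the median lay between 0.19 and 0.37. Both were lowest without knockout D. In 11 members every knockout lay above every control, against 2.69% of all genes. Serpind1 had the smallest p at 0.48 ± 0.12 (adjusted p = 0.386, edgeR), with controls at 294, 326, 345 and 405.9 CPM and knockouts at 482, 485, 430 and 509. The next 4 were Cfi (0.45 ± 0.12), Hgfac (0.49 ± 0.13), Mbl2 (0.48 ± 0.13) and Proz, which encodes protein Z, a cofactor in the inhibition of factor Xa (0.52 ± 0.17). Their adjusted p-values in the edgeR fit lay between 0.430 and 0.529. In simulated counts of this design 10.61% of genes changed 1.5-fold and 53.85% of those changed 2-fold were called. The changed genes were drawn from all genes tested. Members are more abundant than most genes, so these shares do not describe them.

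On the western diet no member was called (2 of 13533 genes, 0.0148%). Log2 fold changes were above 0 for 35 members against 46.2% of all genes, with a median of 0.21 against -0.02, and 10 members had an unadjusted p under 0.05 (9.79% of all genes). In 2 members, F2 and Hgfac, every knockout lay above every control (1.53% of all genes). Hgfac had the largest difference. Controls were at 86.7, 85.4, 102, 95.2 and 107 CPM, and knockouts at 155, 196, 160 and 119. All 4 knockouts were above all 5 controls, but the difference of 0.72 ± 0.16 had an adjusted p of 0.163 in the edgeR fit. DESeq2 called it, as did the edgeR fit without a filter on low counts. Next were Cfi (0.42 ± 0.13), C8a, a subunit of the membrane attack complex (0.42 ± 0.17), Proz (0.27 ± 0.11) and F11, factor XI of the contact system (0.49 ± 0.20), with adjusted p-values of 0.327 to 0.447 (edgeR).

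On the high-fat diet Hgfac was the 1 member called, where 0.281% of all genes were called and 0.2% were called higher. Its controls were at 112, 118, 146, 173 and 138 CPM and its knockouts at 219, 208, 196, 186 and 304, with no overlap. The change was 0.70 ± 0.15 (adjusted p = 0.0463, edgeR). The call stood near the threshold: leaving out 1 library of the diet table ended it in 13 of 19 fits (it stayed without western diet control A or B, western diet knockout B or D, or high-fat diet knockout C or D). Without western diet control A 4 members were called, and DESeq2 called 7. The next 4 by p were Hrg (0.49 ± 0.12), Cfi (0.48 ± 0.12), F12 (0.39 ± 0.10) and F10, factor X (0.41 ± 0.11), with adjusted p-values of 0.0672 to 0.0864 (edgeR). For all 4 every knockout lay above every control. Leukocyte markers summed to 21.2 to 43.5 CPM in controls and 20.7 to 146 in knockouts, with 4 of 6 tested genes at an unadjusted p under 0.05, 1 called higher and a median log2 difference of 1.33, and none was at 0 in every library. Their part in the result was not tested. Over all members 33 were above 0 (51.5% of all genes), 17 had an unadjusted p under 0.05 (13.8%) and 9 did not overlap upward (1.85%). Mbl1 (-0.37), C6 (-0.23) and Fgg (-0.14) had the lowest values.

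**Figure D4:**
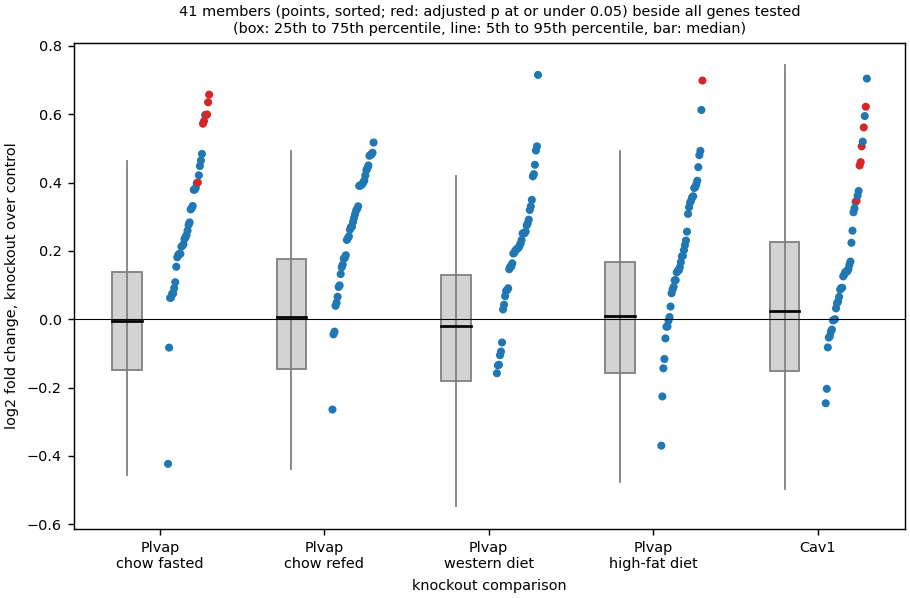
Log2 fold change of the 41 members (points, sorted within each comparison, red where called) beside all genes tested (box from the 25th to the 75th percentile, line from the 5th to the 95th, bar at the median) for the 5 knockout comparisons. In fasted Plvap livers 33 members lie above the 75th percentile of all genes, and in the Cav1 experiment 15 do.

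The 4 Plvap experiments share no library, so directions can be set side by side. The value was above 0 in all 4 for 29 of the 41 members (70.7%), and of the 12551 genes tested in all 4 the share was 10.4%. C6, a terminal pathway component, was below 0 in all 4. Mbl1 was above 0 in 1 of 4, and C3 and C8g in 2 of 4. In the mean of the 4 knockout effects 19 members were called higher and 0 lower, against 5.58% of 14234 genes in either direction and 3.13% higher. An unadjusted p under 0.05 was found for 33 members (19.6% of all genes), and 39 were above 0 (48.7%). The median over members was 0.24, against 0.00 over all genes.

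In that mean effect Hgfac had the largest change (0.64 ± 0.07, adjusted p = 5.2e-07). By role, 3 of 4 contact system genes were called. They were F11 (0.51 ± 0.10), Kng1 (0.40 ± 0.08) and F12 (0.20 ± 0.05), and Klkb1 (prekallikrein) was at 0.19 ± 0.07 without a call. Both inhibitors rose, Serpind1 by 0.37 ± 0.05 and Serpinc1, antithrombin, by 0.20 ± 0.05. Of 4 fibrinolysis genes 3 rose: Hrg (0.41 ± 0.08), Serpinf2, the α2-antiplasmin that blocks plasmin (0.39 ± 0.08), and Plg (0.34 ± 0.07). Of 7 vitamin K dependent factors 4 rose, namely F7 (0.34 ± 0.07), Proz (0.31 ± 0.06), F10 (0.28 ± 0.06) and F2 (0.28 ± 0.05). F7, F10 and Proz lie next to one another on chromosome 8. F9, Proc (protein C) and Pros1 (protein S) were at 0.11, 0.14 and 0.06. F13b, the carrier subunit of the fibrin crosslinking enzyme, was called at 0.21 ± 0.06 and its call was lost in 13 of 38 fits that left out 1 library.

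On the complement side 5 of 18 rose: Cfi (0.50 ± 0.07, adjusted p = 5.5e-06), Mbl2 (0.43 ± 0.08), C2 (0.31 ± 0.08), C8a (0.28 ± 0.09) and Masp2 (0.15 ± 0.04). C8a has an adjusted p of 0.0451 (edgeR) and lost its call in 22 of 38 such fits. C2 lies next to Cfb on chromosome 17, on the same strand and without overlap (35081580-35117241 and 35075350-35081494). Whether reads of one were counted for the other was not tested. None of the fibrinogen chains was called, with Fga at 0.26 ± 0.09 (adjusted p = 0.0763, edgeR). The 23 coagulation members were all above 0, 14 of them called, and the 18 complement members had 16 above 0.

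Whether the knockout effect differs between conditions was tested directly. For western against high-fat diet 0 of 13533 genes (0.0%) and 0 members were called by edgeR, and DESeq2 called 56 genes and 0 members. At an unadjusted p under 0.05 there was 1 member, Mbl1, against 11.4% of all genes. Its difference between the effects was 0.69 ± 0.26 (adjusted p = 0.340), made of 0.32 on the western and -0.37 on the high-fat diet. For refed against fasted chow edgeR called 0 of 14234 genes (0.0%) and DESeq2 called 6 genes and 0 members. There F7 was the 1 member with an unadjusted p under 0.05, a share of 8.37% over all genes (-0.45 ± 0.19, adjusted p = 0.539, edgeR). Across all genes this difference rose with gene length (Spearman 0.33), and the members' median went from -0.07 to 0.03 with that trend removed. For Hgfac the differences, western minus high-fat diet and refed minus fasted, were 0.02 ± 0.22 and -0.15 ± 0.21. A p that misses the threshold does not show that the effects were alike.

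In whole-body Cav1 knockouts 6 members rose and none fell: Cfi, Fgg, Serpinf2, C9, F10 and Fgb. Of 12978 genes tested, 4.68% were called and 2.57% were called higher. Values above 0 numbered 32 (53.9% of all genes), and the median was 0.14 against 0.02. In 8 members the knockouts lay above all wild types (6.13% of all genes), and 14 had an unadjusted p under 0.05 (18.6%). Cfi was at 446, 498, 483 and 472 CPM in wild types and at 650, 597, 668 and 669 in knockouts, a change of 0.46 ± 0.08 (adjusted p = 0.00956, edgeR). The wild types lay close together and all below the knockouts.

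Fgg was at 2821, 3228, 3208 and 2536 CPM in wild types and at 4854, 4055, 4519 and 3787 in knockouts, and the change was 0.56 ± 0.12 (adjusted p = 0.0199, edgeR). Fgb was at 2872, 3407, 3204 and 2676 in wild types and at 4947, 3552, 4665 and 3916 in knockouts, at 0.51 ± 0.13 (adjusted p = 0.0484, edgeR). For both chains the groups did not overlap. Fga was at 0.52 ± 0.16 and was not called (adjusted p = 0.1075, edgeR). Its knockout B, at 3622 CPM, lay among the wild types of 2996 to 3893, and the other knockouts lay above them.

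Serpinf2 was at 674, 682, 738 and 680 CPM in wild types and 995, 973, 810 and 973 in knockouts, and the change was 0.45 ± 0.09 (adjusted p = 0.0199, edgeR). C9, whose protein forms the pore of the membrane attack complex, was at 493, 430, 423.2 and 361 in wild types and 599, 667, 785 and 546 in knockouts, at 0.62 ± 0.14 (adjusted p = 0.0259, edgeR). F10 was at 375, 410, 385 and 383.5 in wild types and 518, 472, 448 and 519 in knockouts, at 0.35 ± 0.08 (adjusted p = 0.0400, edgeR). In all 3 the groups were apart. The 6 terminal pathway genes were all above 0, with a median of 0.485, and C8b had the highest value of the 41 members at 0.70 without a call.

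Hgfac, which had the largest mean effect of the 41 members in Plvap knockouts, was at 0.26 ± 0.12 here (adjusted p = 0.263, edgeR), with wild types at 204, 179, 207 and 228 CPM and knockouts at 242, 247, 202 and 279. F7 was at -0.08 ± 0.09 and Mbl2 at 0.05. The Cav1 and Plvap effects come from different stocks and fasting times and their difference was not tested. Across all genes log2 fold change fell with gene length (Spearman -0.29), and with that trend removed 3 calls were left. Without a single library the count was 1 (without wild type D), 2 (without wild type A, wild type B or knockout A), 4 (without wild type C) and 5 to 7 otherwise. Summed markers of liver endothelial cells (9 genes, none at 0 in every library) were 323 to 366 CPM in wild types and 228 to 332 in knockouts. Of these genes 8 of 9 were below 0, 4 had an unadjusted p under 0.05 and 1, Clec4g, was called lower (-0.68 ± 0.09). Their part in the result was not tested.

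**Figure D5:**
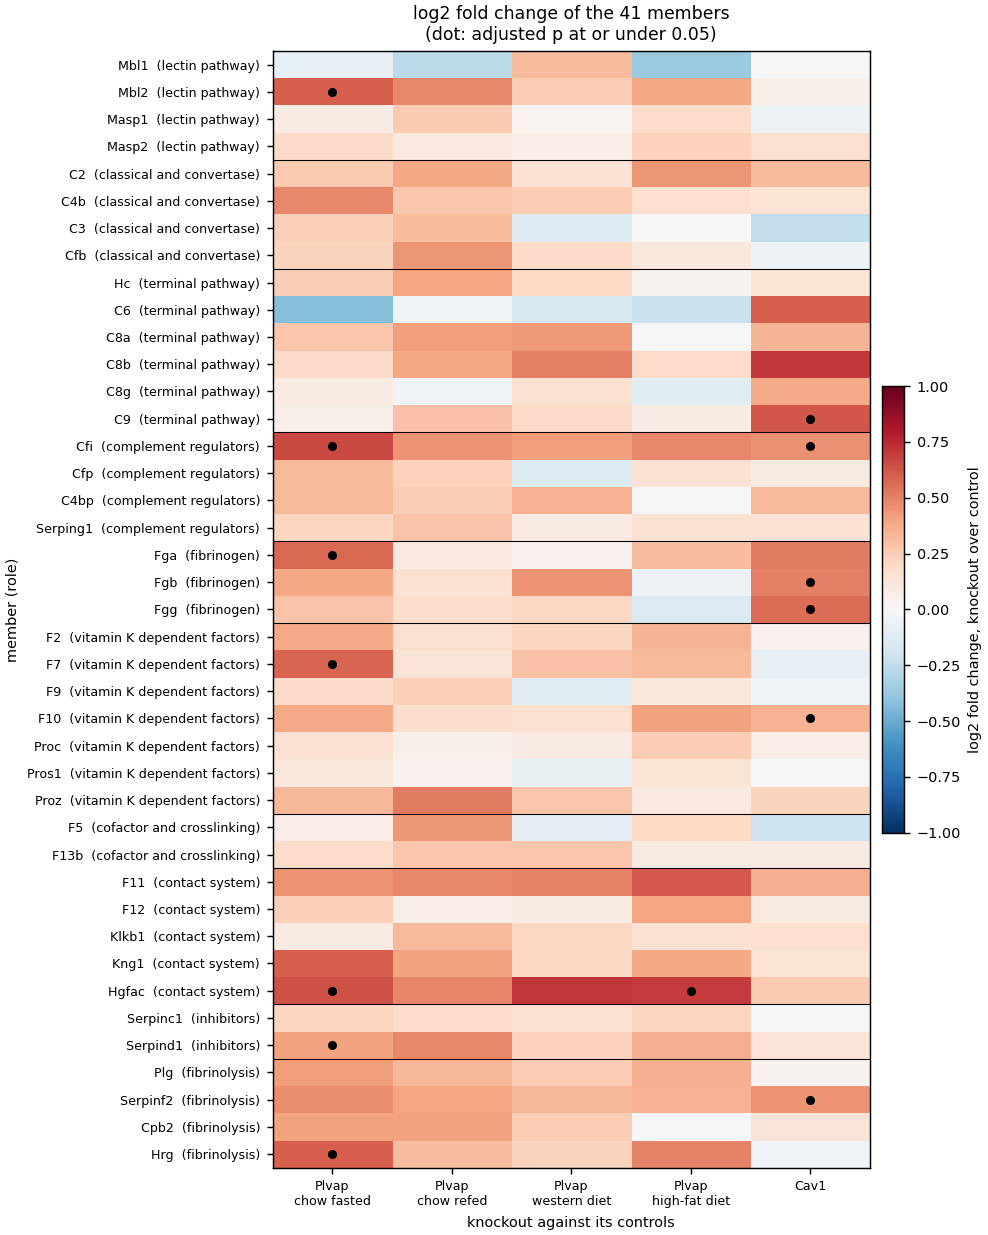
Log2 fold change, knockout over control, of the 41 members (rows, ordered by role, with Hgfac, a relative of F12, listed in the contact system rows) in the 5 knockout comparisons (columns), with a dot where the member was called. Most cells of the Plvap columns are above 0. Dots in the Plvap columns number 7, 0, 0 and 1, and the Cav1 column has 6.

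Western against high-fat diet was also compared within each genotype. In controls F11 was the 1 member called: western diet livers were at 35.4, 20.5, 34.5, 24.98 and 24.0 CPM and high-fat diet livers at 47.6, 44.5, 47.0, 39.7 and 57.1, lower on the western diet by log2 -0.76 ± 0.19 (adjusted p = 0.0429, edgeR, 2.09% of all genes called and 0.99% called lower). All western diet livers lay below all high-fat diet livers (2.11% of all genes). Hgfac (-0.53 ± 0.15), C4bp, which encodes C4b-binding protein (-0.46 ± 0.15), Cfb (-0.54 ± 0.18) and Proz (-0.22 ± 0.11) came next, with adjusted p-values from 0.0639 to 0.329. The F11 call was lost in 9 of the 19 fits without 1 library (any of the 5 high-fat diet controls, western diet control B, D or E, or western diet knockout C). Liver endothelial markers summed to 176 to 231 CPM in western diet controls and 248 to 284 in high-fat diet controls, with 9 of 9 below 0, 5 at an unadjusted p under 0.05, 1 called lower and none at 0 in every library, and their part in the result was not tested.

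In Plvap knockouts, where 8.45% of all genes were called (4.43% higher, 4.01% lower), 3 members were lower on the western diet and 1 was higher. F11 was at 28.2, 53.5, 42.4 and 33.8 CPM on the western and at 89.7, 61.3, 56.9, 57.98 and 94.2 on the high-fat diet (-0.88 ± 0.20, adjusted p = 0.0164, edgeR). Masp2 was at 131, 123, 120 and 114 against 136, 168, 153, 147 and 156 (-0.33 ± 0.09, adjusted p = 0.0287, edgeR). For both, all western diet livers lay below all high-fat diet livers (5.41% of all genes). Hgfac changed by -0.52 ± 0.16 (adjusted p = 0.0457, edgeR) with overlapping groups. Mbl1 was the gene that rose, by 0.61 ± 0.19 (adjusted p = 0.0481, edgeR). Its western diet livers were at 792, 506, 662 and 768 CPM and its high-fat diet livers at 342, 481, 615, 457 and 312, and they overlapped. Hrg, at -0.39 ± 0.12, missed the threshold (adjusted p = 0.0511, edgeR). The count fell to 1 without western diet knockout A or C, to 2 without western diet control C, high-fat diet control B, C or E, or high-fat diet knockout A, to 0 without western diet knockout D or high-fat diet knockout E, and rose to 6 without western diet control A. In these knockouts 8 of 9 liver endothelial marker genes were also below 0, 7 had an unadjusted p under 0.05 and 5 were called lower on the western diet. Their sums were 200 to 226 CPM against 249 to 323. No marker was at 0 in every library, and their part in the result was not tested.

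A list of 55 other genes of the same pathways was fitted alongside. Of these 44 were tested in fasted Plvap livers, and 2 were called: Kng2 (a second kininogen, 0.61 ± 0.14) and C4a (the paralog of C4b, 0.67 ± 0.17). Reads of Kng1 and Kng2, and of C4a and C4b, may be split between near-identical copies, so these values are uncertain. In the mean Plvap effect 5 of 49 were called, all higher: Kng2 (0.35 ± 0.06), Pzp, a protease inhibitor of the α2-macroglobulin family (0.40 ± 0.08), C1s1 (0.27 ± 0.06) and C1ra (0.25 ± 0.05), the proteases of the C1 complex, and Fcna, a ficolin (0.20 ± 0.06). In the Cav1 experiment Serpina10, which inhibits factor Xa with protein Z, was called at 0.66 ± 0.12, 1 of 44.

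A list of other hepatocyte plasma proteins had 14 genes tested. In fasted Plvap livers 3 of 14 rose: Alb (0.96 ± 0.12), Ahsg (fetuin A, 0.56 ± 0.13) and Fetub (fetuin B, 0.65 ± 0.16). In the mean Plvap effect 10 of 14 rose, Alb by 0.88 ± 0.07, Ahsg by 0.44 ± 0.06 and Gc, the vitamin D binding protein, by 0.32 ± 0.05. In the Cav1 experiment Apoa1 (0.80 ± 0.11), Ahsg (0.70 ± 0.12) and Alb (0.53 ± 0.13) were called higher and Serpina1b lower (-0.46 ± 0.09). Among 18 acute phase reactants, none was called in fasted Plvap livers, where the list's median was 0.30. In the mean effect 16 of the 18 were above 0 (48.7% of all genes), with a median of 0.21. Only Hamp (hepcidin) was called there, lower at -1.30 ± 0.33. The list's median was 0.27 in refed Plvap livers, 0.48 on the western diet and -0.17 on the high-fat diet. In the Cav1 experiment Itih3 (0.78 ± 0.13) and Hpx (hemopexin, 0.60 ± 0.14) were called higher. There 14 of the 18 were above 0 (53.9% of all genes), 8 had an unadjusted p under 0.05 (18.6%), and the median was 0.50. Among 18 regulators of hepatocyte and acute phase transcription, Foxa3 (0.62 ± 0.09) and Il6ra, the IL-6 receptor (0.75 ± 0.16), were called in fasted Plvap livers, and none was called in the mean effect or in the Cav1 experiment.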

How the data were processed

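The authors deposited 4 tables of raw read counts per Ensembl gene, with summed exon length in bases beside them. Per the submitters' processing notes, the tools were STAR 2.7.8a, featureCounts 2.0, FastQC 0.11.9 and MultiQC 1.10.1 on GRCm39. The annotation release and strand setting are not given in the sources used here. Per the labels' protocols, libraries were made with a NEBNext Ultra kit from Monarch-extracted RNA. Gene names came from a RefSeq-derived name table and matched 94.0% of genes, and the genes left without a symbol took 0.764% of counts. No pair of libraries within a group (85 pairs) was identical.

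Each table was fitted on its deposited counts with edgeR 4.0.16 (quasi-likelihood, TMM, filterByExpr with a count minimum of 10, robust) in R 4.3.3. The 4 groups of the diet table shared 1 fit, and the mean Plvap effect and the refed minus fasted difference came from 1 fit over the 38 Plvap libraries. P-values were adjusted over all genes tested, and SE is the log2 fold change divided by the square root of F. Alternatives were DESeq2 1.42.0, its size factors, other filters, the compared groups alone, a replicate block and leaving out each library. Removing a gene length trend and leaving out mitochondrial genes were chosen after seeing the data, the latter because 14 of the 18 genes at 0 in every refed library but at 1 CPM or more elsewhere were mitochondrial. Scripts were tested on simulated data. Total counts of 6656342 to 23311539 set the counting precision. The labels do not state that samples of a group are separate litters or cages. The p-values therefore set a difference only against the spread between these samples, as each fit estimated it over its groups.

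Same-lettered samples deviated together in the refed experiment (r = 0.247 to 0.299 for the 4 pairs), so by the rule used the letters may pair samples there. No label says that they do. The refed estimates and p-values above come from the fit without that pairing. So do those of the mean Plvap effect and of the refed minus fasted difference. With the replicate block 0 refed members were called, as without it. The block raised the refed genes with an unadjusted p under 0.05 from 1024 to 1908 of 13228.

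The members and lists were chosen with earlier results of these data known. Members named in a comparison were all those called and, where under 5 were called, those with the smallest p up to 5. From other lists, called genes were named, at most 6 in a comparison. Other members named, such as Mbl1 and the uncalled fibrinogen chains in fasted livers, were chosen after their values were seen. Stated fasting times follow the sample characteristics. The characteristics and the treatment text differ for the chow groups. A gene of the companion lists and a searched motif are not reported here.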

Additional observations from a re-analysis of the deposited data

Results flagged for a closer look

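In 12 members 120 groups of 4 to 6 livers were searched for a sample set apart from the others of its group. The search marked 11 groups (9.17%), where chance marks about 1 in 20. The 12 members were measured in the same livers and members varied together, so the groups are not independent trials. The count therefore shows no excess over chance. After refeeding, Mbl2 in control B was at 117.6 CPM (nearest other control 163.2), and Hgfac in control A at 118 (nearest 160.5). Refed knockout D was the highest of its group for Fgb (3907, nearest 2766), F10 (449.3, nearest 405.2) and Serpinf2 (867, nearest 784.5). On the western diet Fga in control D was at 1804 (nearest 2630) and F10 in knockout A at 376.1 (nearest 341.8). On the high-fat diet Hgfac in knockout E was at 303.7 (nearest 218.6) and Serpind1 in knockout B at 613.5 (nearest 532.9). In the Cav1 experiment Serpinf2 was at 738.1 in wild type C (nearest 681.8) and at 810.3 in knockout C (nearest 972.7).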

How the results depend on the processing

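Counts of called members moved as follows. In fasted Plvap livers the 7 became 15 without a filter, 16 with a replicate block and 14 by DESeq2, each with 1 of them lower and all 7 kept. In the Cav1 experiment the 6 became 3 with the length trend removed. On the western diet 0 became 1 without a filter and 1 by DESeq2, Hgfac in both. On the high-fat diet the 1 call became 0 at a filter of 1 CPM, 0 with the replicate block, 0 without mitochondrial genes, 0 with the compared groups alone and 7 by DESeq2. Between diets, the 1 call in controls became 0 with the block, 3 by DESeq2 and 2 with the compared groups alone, and the 4 in knockouts became 1 with the block and 1 with the compared groups alone. The cause was not tested. Leaving out 1 library gave 2 to 11 calls in fasted, 0 to 0 in refed, 1 to 7 in Cav1, 0 to 0 in western diet and 0 to 4 in high-fat diet livers. It gave 0 to 2 between diets in controls, 0 to 6 in knockouts, 17 to 22 in the mean effect, and 0 to 0 for both differences of effects. No called member changed direction under any of these settings. Over all genes, the 289 called in fasted livers became 713 with the block, 690 by DESeq2 and 861 without a filter. The 3 in refed livers became 30, 60 and 131, the 38 on the high-fat diet became 3, 255 and 99, and the 2 on the western diet became 1, 20 and 10. The 607 in the Cav1 experiment became 933 by DESeq2 and 1279 without a filter, and the 283 between diets in controls became 597 by DESeq2. No label says that the letters pair samples, and outside the refed experiment same-letter correlations were not all above 0.1. Groups held 4 to 6 livers, and every member had 122 or more counts in every library.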

Other observations

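Genes of the other lists also differed between the diets. In controls C4a (log2 -1.35 ± 0.21), Serpina10 (-0.87 ± 0.22) and the serum amyloid gene Saa4 (-0.58 ± 0.14) were called lower on the western than on the high-fat diet by edgeR, as was the sinusoidal endothelial lectin gene Clec4g (-0.72 ± 0.13). In Plvap knockouts Fcna (-0.52 ± 0.13), F8 (factor VIII, -0.53 ± 0.15), Serpina1b (-0.43 ± 0.11) and Il6st, the signalling subunit of the IL-6 receptor (-0.51 ± 0.14), were called lower. The sinusoidal endothelial receptor gene Lyve1 was called higher in the mean Plvap effect (0.62 ± 0.10), as was the B cell gene Cd79a (0.83 ± 0.18). Cd79a RNA was scarce. On the high-fat diet, where it was the leukocyte marker called, it was at 1.66 ± 0.725 CPM in knockouts and 0.479 ± 0.168 in controls.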
